A study of Homo sapiens with 6 samples.

Results

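Prohormone processing genes were followed in EndoCBH1 cells, a human pancreatic beta cell line derived from fetal pancreas and immortalised by gene transfer, after siRNA against the homeobox factor MNX1. The set held 8 genes named by their symbols, PCSK1, PCSK2, PCSK1N, CPE, PAM, CPD, FURIN and QPCT, and 8 of 8 were found among the 16792 genes of the deposited table. The rule that picks them uses symbols and no measured value, but the set was drawn up with earlier results of these data known. The siMNX1 group had 3 libraries of cells labelled as MNX1 knock down, and the siNT group had 3 libraries of cells labelled WT that received a non-targeting siRNA. Both groups are the same line, so no result here extends beyond it, and the time between transfection and harvest is not given in the sources used here. Nothing in the labels says whether the 3 libraries of a group were separate cultures, so p-values measure the spread between these libraries, which may be technical.

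Peptide hormones are made as longer precursors and are cut to size in the secretory pathway. In beta cell granules the convertases encoded by PCSK1 and PCSK2 cut proinsulin after pairs of basic residues, and carboxypeptidase E (CPE) then trims the basic residues left at the new ends. Furin and carboxypeptidase D do the related work in the trans-Golgi network of nearly all cells, while PAM and QPCT modify peptide ends by amidation and by forming pyroglutamate.

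Of the 8 genes, 3 were called higher and 0 lower with MNX1 siRNA (limma, adjusted p under 0.05), where 1.99% of all genes tested were called higher and 1.33% lower. The 3 were PCSK2, PCSK1 and PCSK1N, whose products work in the granules of endocrine and nerve cells. At an unadjusted p under 0.05 limma gave 4 higher and 0 lower of 8, where 9.81% of all genes were higher and 8.56% lower by that rule, and the fourth gene was CPE. The siMNX1 libraries lay above all siNT libraries for the same 4 genes, a pattern seen in 12.0% of all genes, and for 0 of 8 they lay below, as in 12.1% of all genes. For PAM, CPD, FURIN and QPCT the groups overlapped. The median log2 fold change of the 8 genes was 0.11, and that of all genes tested was -0.000. RNA was measured in bulk, so more cells with a transcript and more transcript per cell cannot be told apart.

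**Figure D1:**
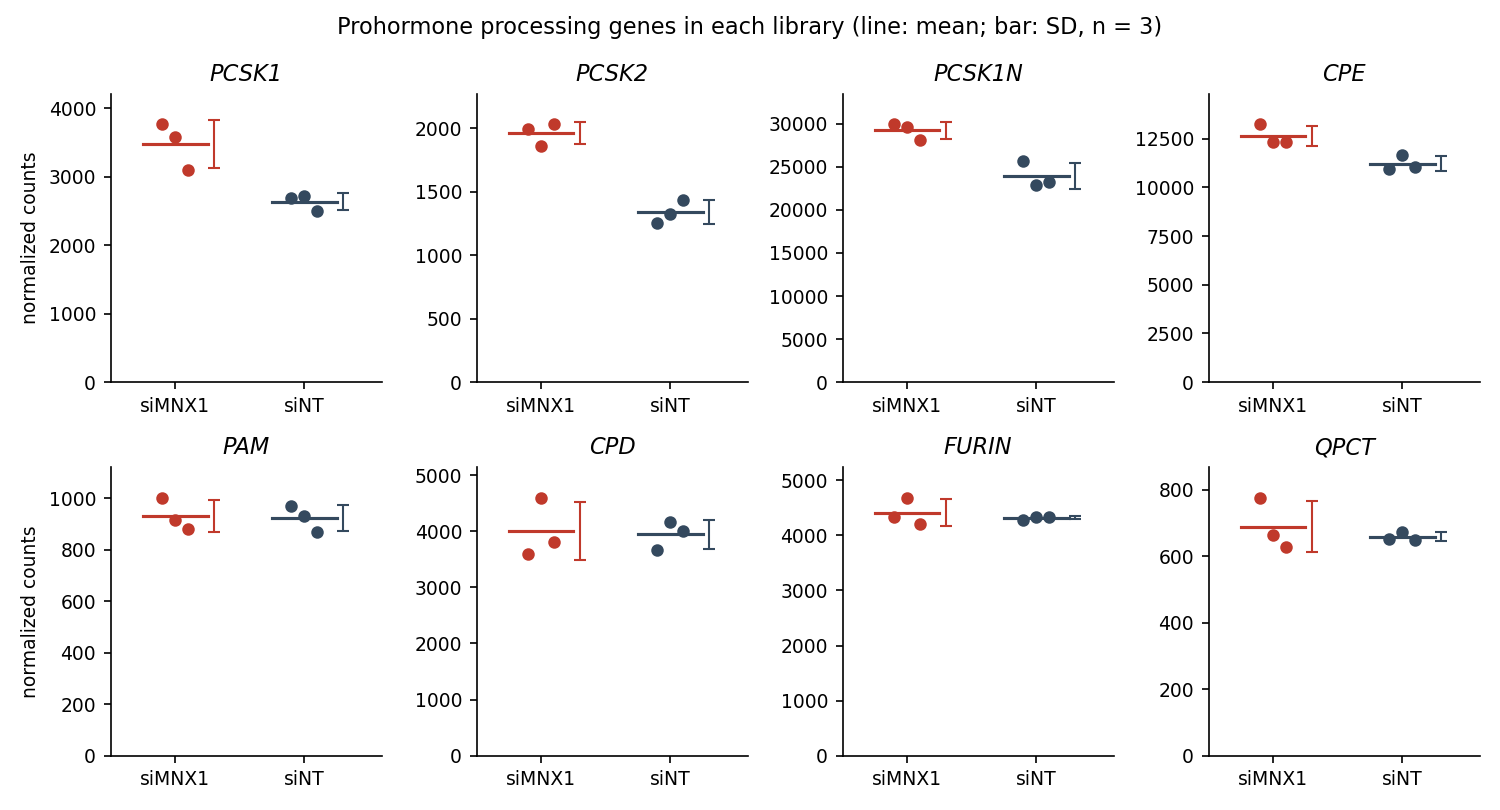
Normalized counts (vertical axes, each starting at 0) of the 8 processing genes in the 3 siMNX1 and 3 siNT libraries, with points for libraries, a line for the mean and a bar for the SD. The groups are apart for PCSK1, PCSK2, PCSK1N and CPE and overlap for PAM, CPD, FURIN and QPCT.

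The targeted transcript itself was little lower. MNX1 had 1885, 1708 and 1751 normalized counts in siMNX1 replicates 1 to 3, against 2039, 2033 and 1988 in siNT replicates 1 to 3, which is -0.18 on the log2 scale and not past the threshold (adjusted p = 0.116 by limma). PERCC1 and SST, which the study set out to follow, rose by log2 fold changes of 4.24 and 1.96 (limma, adjusted p = 2.47e-06 and 3.97e-06). Library totals of 18406479 to 18704645 follow the authors' normalization and are not read depths. Mitochondrial transcripts made up 5.43% to 6.49% of the totals in siMNX1 libraries and 5.39% to 6.81% in siNT libraries.

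PCSK2 encodes the convertase that acts on proinsulin intermediates and, in islet alpha cells, on proglucagon. It showed the largest change of the 8 genes. PCSK2 (GRCh38 chromosome 20, 17226107 to 17484578 on the plus strand) had 1996, 1864 and 2030 normalized counts in siMNX1 replicates 1 to 3, against 1250, 1323 and 1437 in siNT replicates 1 to 3. The lowest siMNX1 library lay 427 normalized counts above the highest siNT library. The means were 1963 ± 87.7 in siMNX1 and 1337 ± 94.6 in siNT libraries (SD, n = 3 each), a 1.47-fold difference with a log2 fold change of 0.56 (95% interval 0.41 to 0.71, limma, adjusted p = 0.00243). PCSK2 stayed past the threshold with any single library left out (limma, adjusted p from 0.00342 to 0.0163). With siMNX1 replicate 3 and siNT replicate 2, the libraries of highest mitochondrial share in each group, both left out, its log2 fold change was 0.53 and the call ended (limma, adjusted p = 0.0564).

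PCSK1 encodes the convertase that makes the first cuts in proinsulin. PCSK1 (GRCh38 chromosome 5, 96390415 to 96434143 on the minus strand) had 3767, 3578 and 3099 normalized counts in siMNX1 replicates 1 to 3, against 2686, 2725 and 2498 in siNT replicates 1 to 3. The groups did not overlap, and the siMNX1 libraries were the more scattered, with a coefficient of variation of 9.88% against 4.60% in siNT libraries. PCSK1 rose 1.32-fold, to 3481 ± 344 in siMNX1 against 2636 ± 121 in siNT libraries (SD, n = 3 each, log2 fold change 0.40, 95% interval 0.23 to 0.56, limma, adjusted p = 0.0216). The PCSK1 call held in 2 of 6 cases when single libraries were left out. It ended without siMNX1 replicate 1 (adjusted p = 0.0743) and without siNT replicates 1 (0.0591), 2 (0.0609) or 3 (0.108), all by limma, with log2 fold changes of 0.34 to 0.42, and also without a variance trend (0.129).

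PCSK1N encodes proSAAS, a granin-like protein whose peptides inhibit the PCSK1 convertase. PCSK1N (GRCh38 chromosome X, 48831094 to 48835633 on the minus strand) had 29924, 29671 and 28082 normalized counts in siMNX1 replicates 1 to 3, against 25632, 22852 and 23239 in siNT replicates 1 to 3. It rose 1.22-fold, to 29226 ± 999 in siMNX1 against 23908 ± 1506 in siNT libraries (SD, n = 3 each, log2 fold change 0.29, 95% interval 0.18 to 0.41, limma, adjusted p = 0.0177). The enzyme gene PCSK1 and the gene of its inhibitor were thus both higher in siMNX1 libraries. In the siMNX1 group both were highest in replicate 1 and lowest in replicate 3, an order shared by PAM, QPCT and INS. In the siNT group they differed, with PCSK1 highest in replicate 2, where PCSK1N was lowest. The PCSK1N call ended without siMNX1 replicate 1 (adjusted p = 0.0726), without siNT replicate 2 (0.0806) or 3 (0.0976), without both libraries of highest mitochondrial share (0.119) and without a variance trend (0.138), all by limma.

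SCG5, which is not one of the 8, encodes the chaperone that keeps the PCSK2 convertase soluble and lets it mature. It had 563, 532 and 589 normalized counts in siMNX1 replicates 1 to 3, against 459, 500 and 477 in siNT replicates 1 to 3. The groups did not overlap, but the difference of 0.23 on the log2 scale (95% interval 0.05 to 0.40) was not called (adjusted p = 0.156 by limma).

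Of the carboxypeptidases, CPE acts in granules and CPD mostly in the trans-Golgi network. CPE (GRCh38 chromosome 4, 165361194 to 165498320 on the plus strand) had 13232, 12320 and 12354 normalized counts in siMNX1 replicates 1 to 3, against 10964, 11646 and 11064 in siNT replicates 1 to 3. The gap between the groups was 674 normalized counts. The log2 fold change of CPE was 0.17 (95% interval 0.07 to 0.27), which is 1.05-fold to 1.21-fold, and it was not called (adjusted p = 0.0813 by limma, and 0.063 to 0.268 over 17 alternatives). CPD (GRCh38 chromosome 17, 30378905 to 30469989 on the plus strand) had 3600, 4592 and 3815 normalized counts in siMNX1 replicates 1 to 3, against 3665, 4161 and 4002 in siNT replicates 1 to 3. Replicate 2 was the highest library of each group for CPD, and the siMNX1 values enclosed the siNT values. The 95% interval of the CPD log2 fold change ran from -0.18 to 0.21 around 0.02 (limma, adjusted p = 0.946).

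FURIN (GRCh38 chromosome 15, 90868592 to 90883458 on the plus strand), the convertase of the trans-Golgi network and cell surface, had the lowest coefficient of variation of the 8 genes across siNT libraries, 0.594%. It had 4342, 4680 and 4209 normalized counts in siMNX1 replicates 1 to 3, against 4288, 4332 and 4333 in siNT replicates 1 to 3. The siNT values lay within the siMNX1 range. The 95% interval of its log2 fold change ran from -0.08 to 0.14, so a rise as large as 1.10-fold or a fall to 0.94-fold lies inside it (limma, adjusted p = 0.807).

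Among the genes that finish peptides, PAM amidates C-terminal glycine-extended peptides and QPCT turns N-terminal glutamine into pyroglutamate. PAM (GRCh38 chromosome 5, 102753981 to 103031105 on the plus strand) had 1001, 916 and 880 normalized counts in siMNX1 replicates 1 to 3, against 968, 931 and 867 in siNT replicates 1 to 3. QPCT (GRCh38 chromosome 2, 37342827 to 37373322 on the plus strand) had 775, 663 and 628 in siMNX1 replicates 1 to 3, against 653, 674 and 648 in siNT replicates 1 to 3. For QPCT siMNX1 replicate 1 stood above all other libraries, and the other siMNX1 libraries lay near the siNT values. The 95% intervals of the log2 fold changes ran from -0.15 to 0.18 for PAM and from -0.14 to 0.25 for QPCT (limma, adjusted p = 0.938 and 0.769).

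**Figure D2:**
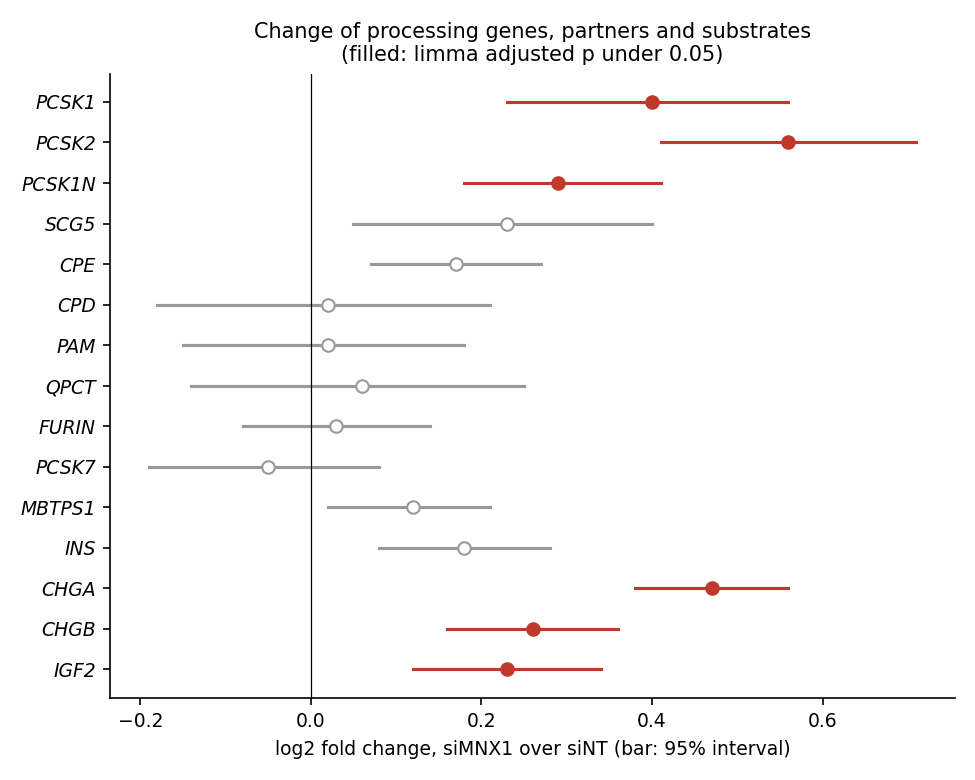
Log2 fold change (siMNX1 over siNT, horizontal axis) of the processing genes, their partners and substrates, with 95% intervals as bars and filled points for a limma adjusted p under 0.05. Of the processing genes PCSK2 (0.56), PCSK1 (0.40) and PCSK1N (0.29) passed, and the intervals of CPD, PAM, QPCT and FURIN include 0. The substrates drawn are INS, CHGA, CHGB and IGF2, of which CHGA (0.47), CHGB (0.26) and IGF2 (0.23) passed. Other called substrates are not drawn, namely SST, VGF and UCN3, which were higher, and IAPP (-1.84), which was lower.

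Promoter sequence is shown for the 4 genes whose groups did not overlap, PCSK1, PCSK2 and PCSK1N, which were called, and CPE, which was not. RefSeq start windows (GRCh38.p14) were matched for 8 of 8 genes, with 16 windows in all, and the 250 bases before each start were searched on both strands. The motifs were TGACGTCA (the cAMP response element), its first letters TGACGT, which overlap it, and TAATTA (a core that many homeodomain proteins prefer), all chosen after the windows had been read. TGACGT was found in 3 of the 16 windows, those of PCSK1, PCSK2 and CPE, and in 7.10% of 35116 windows of all genes. TGACGTCA was found in 1 of the 16 windows, that of PCSK1, and in 1.65% of all windows. TAATTA was found in 0 of the 16 windows and in 4.35% of all windows. Each sequence below is the stretch of a window outside exons annotated in GENCODE 29, 5′ to 3′ on the strand of the gene, in lower case with TGACGT, its reverse complement or the full element in capitals.
PCSK1, upstream start, chr5:96433281-96433498, minus strand: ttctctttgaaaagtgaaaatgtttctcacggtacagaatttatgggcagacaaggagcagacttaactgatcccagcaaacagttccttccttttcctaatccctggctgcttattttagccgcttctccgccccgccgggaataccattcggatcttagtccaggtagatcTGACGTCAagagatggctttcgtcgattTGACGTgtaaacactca
PCSK1, downstream start, chr5:96432161-96432410, minus strand: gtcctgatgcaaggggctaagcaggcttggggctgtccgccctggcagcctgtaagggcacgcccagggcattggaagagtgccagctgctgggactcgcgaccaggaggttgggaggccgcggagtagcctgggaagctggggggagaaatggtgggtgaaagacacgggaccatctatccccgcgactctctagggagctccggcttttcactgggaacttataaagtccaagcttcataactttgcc
PCSK2, upstream start, chr20:17225857-17226106, plus strand: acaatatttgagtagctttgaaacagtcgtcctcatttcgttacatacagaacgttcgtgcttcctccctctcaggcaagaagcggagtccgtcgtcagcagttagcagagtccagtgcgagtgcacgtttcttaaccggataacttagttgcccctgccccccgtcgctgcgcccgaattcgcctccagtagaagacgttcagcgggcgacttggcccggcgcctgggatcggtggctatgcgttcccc
PCSK2, downstream start, chr20:17226790-17226990, plus strand: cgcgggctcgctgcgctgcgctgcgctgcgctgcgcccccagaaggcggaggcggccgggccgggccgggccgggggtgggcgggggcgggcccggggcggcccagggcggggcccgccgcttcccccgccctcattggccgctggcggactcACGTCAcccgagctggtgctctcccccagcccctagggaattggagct
PCSK1N, chrX:48835634-48835860, minus strand: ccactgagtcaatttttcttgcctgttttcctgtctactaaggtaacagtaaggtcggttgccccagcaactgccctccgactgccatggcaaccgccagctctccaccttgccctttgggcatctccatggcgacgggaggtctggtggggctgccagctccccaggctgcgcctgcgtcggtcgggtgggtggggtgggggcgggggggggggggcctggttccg
CPE, chr4:165378758-165378941, plus strand: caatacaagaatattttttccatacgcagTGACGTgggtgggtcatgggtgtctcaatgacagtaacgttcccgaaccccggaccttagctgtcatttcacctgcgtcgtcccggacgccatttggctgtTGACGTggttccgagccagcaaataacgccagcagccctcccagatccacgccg
In PCSK1 the full element begins 77 bases before the upstream start and a further TGACGT begins 49 bases before it, and the window of the downstream start holds no match. In CPE the matches begin 221 and 120 bases before the start, and in PCSK2 the single match begins 97 bases before the downstream start, with none in the window of the upstream start. PCSK1N was called higher and had no match in its window. A match in these letters is no evidence of binding, and factor binding was not measured.

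Ratios within a library do not depend on how libraries were scaled, so 8 of them were compared between groups by an exact two-sided permutation test over libraries. With 3 against 3 libraries the smallest p it can give is 0.1, so no ratio could pass a threshold of 0.05. How often ratios of other gene pairs keep the groups apart was not computed. PCSK1, PCSK2 and CPE already kept the groups apart by themselves, so their ratios are not separate evidence. The values are log2 ratios of normalized counts, not corrected for length. The PCSK2/PCSK1 ratio was -0.92, -0.94 and -0.61 in siMNX1 replicates 1 to 3, against -1.10, -1.04 and -0.80 in siNT replicates 1 to 3. These overlap, and the difference of 0.16 gave p = 0.4 in the exact permutation test (0.457 adjusted over the 8 ratios).

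Set against insulin mRNA, both convertase genes were higher in siMNX1 libraries. The PCSK2/INS ratio was -6.03, -6.09 and -5.87 in siMNX1 replicates 1 to 3, against -6.52, -6.37 and -6.22 in siNT replicates 1 to 3, a difference of 0.37. The PCSK1/INS ratio averaged -5.17 ± 0.080 in siMNX1 and -5.39 ± 0.050 in siNT libraries (SD, n = 3 each), a difference of 0.22. The groups did not overlap for either ratio, each with the smallest p the exact permutation test allows (0.1, 0.2 adjusted). The CPE/INS ratio averaged -3.31 ± 0.048 in siMNX1 and -3.30 ± 0.077 in siNT libraries, with overlapping values (exact permutation test, p = 0.8, 0.8 adjusted).

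The remaining ratios compared partner genes with each other. The SCG5/PCSK2 ratio was -1.83, -1.81 and -1.78 in siMNX1 replicates 1 to 3, against -1.44, -1.40 and -1.59 in siNT replicates 1 to 3, so the chaperone gene was lower relative to its convertase gene in every siMNX1 library (difference -0.33, exact permutation test, p = 0.1, 0.2 adjusted). The PAM/CPE ratio was lower by the same criterion, with -3.76 ± 0.044 in siMNX1 and -3.61 ± 0.092 in siNT libraries (SD, n = 3 each, difference -0.16, exact permutation test, p = 0.1, 0.2 adjusted). The PCSK1N/PCSK1 and CPD/CPE ratios overlapped between groups, with differences of -0.11 and -0.15 (exact permutation test, p = 0.2 and 0.4, 0.32 and 0.457 adjusted). Against FURIN, set beside them after the values were seen and given without a test, the PCSK1 ratio averaged -0.34 in siMNX1 and -0.71 in siNT libraries and the PCSK2 ratio -1.17 in siMNX1 and -1.69 in siNT libraries, with no overlap for either.

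**Figure D3:**
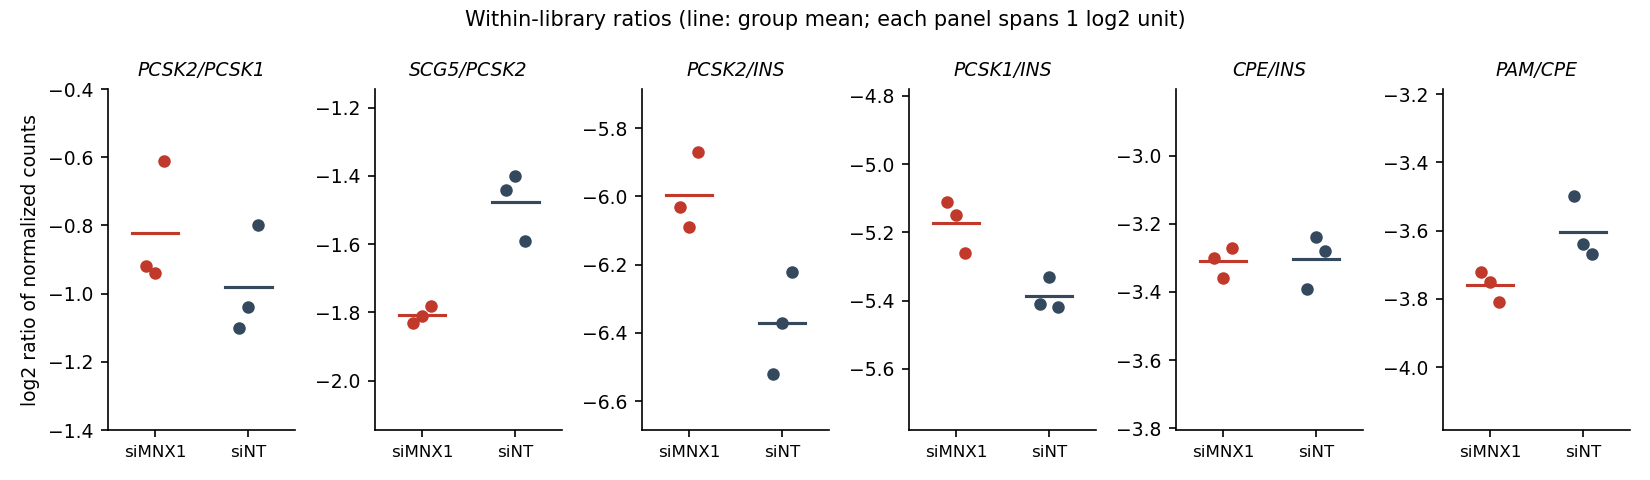
Log2 ratios of normalized counts between gene pairs within each library (vertical axes, each panel spanning 1 log2 unit), with points for libraries and a line for the mean of siMNX1 and of siNT. The groups are apart for SCG5/PCSK2, PCSK2/INS, PCSK1/INS and PAM/CPE and overlap for PCSK2/PCSK1 and CPE/INS.

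Levels of different genes were compared per length, as normalized counts per kilobase of annotated exons, scaled to 1000000 per library. On that scale PCSK1N was the most abundant of the 8, at 3976 ± 213 in siMNX1 and 3215 ± 300 in siNT libraries (SD, n = 3 each). CPE followed with 792 ± 45.3 in siMNX1 and 694 ± 7.24 in siNT libraries, FURIN with 173 ± 11.5 in siMNX1 and 167 ± 4.51 in siNT libraries, and PCSK1 with 122 ± 14.4 in siMNX1 and 90.9 ± 4.60 in siNT libraries. The inhibitor precursor was thus the most abundant message of the set and exceeded that of the convertase it inhibits in all 6 libraries. For scale, INS stood at 29967 ± 1938 in siMNX1 and 26089 ± 1546 in siNT libraries.

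The lower end of the order was tighter. CPD had 59.2 ± 7.86 in siMNX1 and 57.5 ± 2.02 in siNT libraries, and PAM was lowest with 19.5 ± 1.66 in siMNX1 and 19.1 ± 1.39 in siNT libraries. Between them, QPCT had 47.4 ± 6.13 in siMNX1 and 44.7 ± 0.861 in siNT libraries and PCSK2 had 51.4 ± 2.12 in siMNX1 and 34.6 ± 2.33 in siNT libraries. In siMNX1 libraries these neighbours did not differ beyond their spread, while in siNT libraries PCSK2 lay below QPCT. Taking the longest protein-coding transcript as the length, an alternative chosen after seeing the data, left the order of the 8 means over all libraries as it was.

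**Figure D4:**
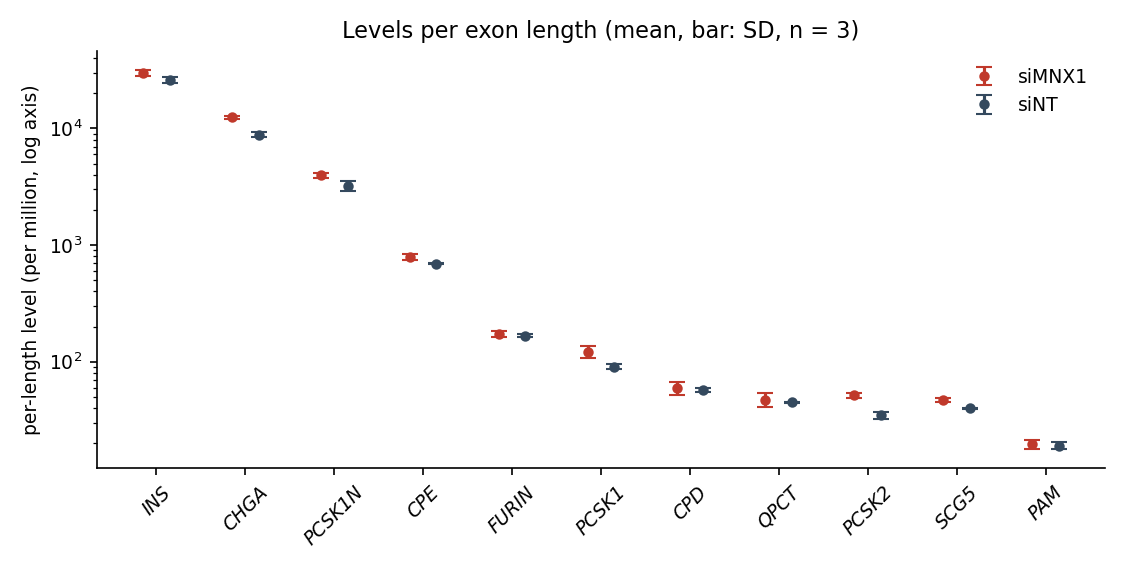
Per-length levels (vertical log axis, scaled to 1000000 per library) of the processing genes, SCG5, INS and CHGA, as means with SD bars over 3 siMNX1 and 3 siNT libraries. PCSK1N and CPE stand above the other processing genes, and PCSK2 lies near QPCT.

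Other genes of the pathway were taken by list, and each count below stands against the shares over all genes, of which limma called 1.99% higher and 1.33% lower, with 9.81% higher and 8.56% lower at an unadjusted p under 0.05. Of 5 other proprotein convertases, all measured, 0 were called, and 1 higher and 0 lower had an unadjusted p under 0.05 (limma), with a median log2 fold change of 0.06. PCSK7 and MBTPS1, those with the most normalized counts, had log2 fold changes of -0.05 and 0.12 (limma, adjusted p = 0.698 and 0.179). Of 6 other regulatory carboxypeptidases 2 were measured, CPM and AEBP1, with 0 called and 0 at an unadjusted p under 0.05 (limma).

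Of 9 measured amidation and pyroglutamate partners, 1 was higher and 0 lower (2 higher and 0 lower at an unadjusted p under 0.05, limma). ATP7A, the pump that loads copper into enzymes of the secretory pathway such as PAM, had 595, 568 and 505 normalized counts in siMNX1 replicates 1 to 3, against 408, 368 and 378 in siNT replicates 1 to 3 (limma, log2 fold change 0.53, adjusted p = 0.0143). The ATP7A call ended without siMNX1 replicate 1 (0.0614), siNT replicate 2 (0.0629) or siNT replicate 3 (0.0703), adjusted p by limma. PAM itself had a log2 fold change of 0.02.

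Genes that handle precursors before the convertases, and those that acidify granules or sort convertases, were counted in the same way. Of 19 genes of signal peptide removal and ER entry, 0 were called by limma and 0 higher and 2 lower had an unadjusted p under 0.05, with a median log2 fold change of -0.01. Its members with the most normalized counts, SRP9 and SEC61A1, had log2 fold changes of 0.06 and -0.08. Of 21 measured granule acidification genes, 1 was higher and 0 lower (2 and 2 at an unadjusted p under 0.05, limma), with a median of 0.01. It was CLCN5, a chloride and proton exchanger mainly of endosomes (4874, 5847 and 4880 normalized counts in siMNX1 replicates 1 to 3, against 4187, 3797 and 3854 in siNT replicates 1 to 3, a difference of 0.39 on the log2 scale with an adjusted p of 0.0233 by limma), and its call ended without siNT replicate 2 (0.0949) or 3 (0.112) and with the replicate block (0.067). Of 23 measured genes that sort convertases, 0 were called and 2 higher and 3 lower had an unadjusted p under 0.05 (limma), with a median of -0.05. AP2M1 and AP1B1, those with the most normalized counts, had log2 fold changes of -0.15 and -0.06.

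Of 18 measured prohormone and granin substrates out of 33, 6 were higher and 1 lower, with 7 higher and 2 lower at an unadjusted p under 0.05 (limma) and a median log2 fold change of 0.06, against 1.99% higher and 1.33% lower over all genes. CHGA, the granin with the most normalized counts, had 211603, 200612 and 212270 in siMNX1 replicates 1 to 3, against 152770, 149316 and 148991 in siNT replicates 1 to 3 (limma, log2 fold change 0.47, adjusted p = 0.000267). VGF, a granin-like precursor, had 639, 568 and 590 in siMNX1 replicates 1 to 3, against 395, 340 and 396 in siNT replicates 1 to 3 (limma, log2 fold change 0.67, adjusted p = 0.00461). UCN3, the precursor of urocortin 3, rose by 0.49 and SST by 1.96 on the log2 scale. The remaining called substrates, named after their values were seen, were CHGB (0.26) and IGF2 (0.23), which were higher, and IAPP (-1.84), which was lower. The granins SCG2 and SCG3, also named after their values were seen, were not called (limma, adjusted p = 0.06 and 0.827). For SCG2 all siMNX1 libraries lay below the siNT libraries (log2 fold change -0.20), and SCG3 differed by 0.02. IAPP was scarce in both groups, with means of 15.3 normalized counts in siMNX1 and 57.8 in siNT libraries. Its coefficient of variation was 24.5% in siMNX1 and 27.8% in siNT libraries. For comparison, INS had means of 125386 in siMNX1 and 110539 in siNT libraries. The IGF2 call ended in each of the 6 cases with a single library left out (limma, adjusted p from 0.0679 to 0.124) and with the replicate block (0.114), the CHGB call ended without siMNX1 replicate 3 or siNT replicate 1 or 3, and the IAPP call ended without siNT replicate 1 or 2. INS, the main substrate in beta cells, differed by 0.18 on the log2 scale and was not called (adjusted p = 0.0656 by limma), though it passed with a robust variance model (0.0314).

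**Figure D5:**
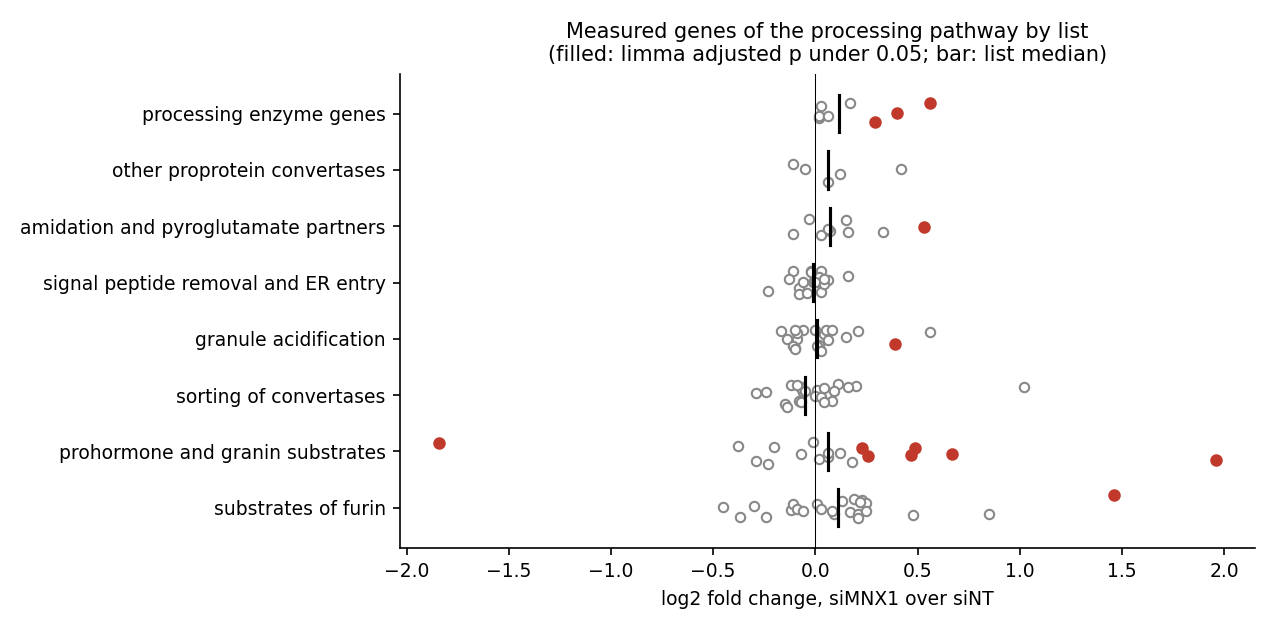
Log2 fold changes (siMNX1 over siNT, horizontal axis) of the measured genes of each list (rows), with filled points for a limma adjusted p under 0.05 and a bar for the list median. Of the filled points 3 are among the 8 processing genes and 7 are prohormone and granin substrates, and the medians of the lists drawn run from -0.05 to 0.11.

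The beta cell label was checked against markers. The counts of called markers below stand against 1.99% of all genes called higher and 1.33% called lower by limma. Of 13 beta cell markers 13 were measured, with 2 called higher (UCN3 and MAFA) and 2 lower (G6PC2 and IAPP). Their summed level was 152276 to 164136 normalized counts in siMNX1 and 143286 to 151743 in siNT libraries, most of it INS. The sum therefore says little about the other beta cell markers. PDX1 had means of 8215 in siMNX1 and 8493 in siNT libraries. The lowest were IAPP, with means of 15.3 in siMNX1 and 57.8 in siNT libraries, and SLC2A2, with 20.2 to 46.8 across all libraries. NKX6-1 was also low, with means of 102 in siMNX1 and 108 in siNT libraries. Of 7 delta cell markers 6 were measured, with 3 higher (SST, HHEX and CASR) and 1 lower (RBP4) by limma, and their summed level was 10098 to 11332 in siMNX1 and 7434 to 7612 in siNT libraries. Most of that sum was CASR, with means of 8607 in siMNX1 and 6112 in siNT libraries, while HHEX had means of 484 in siMNX1 and 54.1 in siNT libraries and RBP4 of 507 in siMNX1 and 981 in siNT libraries. Of 8 alpha cell markers 6 were measured (IRX1 and FAP were not analysed here), with 0 higher and 2 lower. Their summed level was 12145 to 12701 in siMNX1 and 15213 to 15957 in siNT libraries. Most of it was GC, with means of 9478 in siMNX1 and 11527 in siNT libraries. Of 3 gamma cell markers 2 were measured, with 1 higher and 1 lower, at 210 to 244 in siMNX1 and 222 to 246 in siNT libraries. Acinar markers, 3 of 12 measured, summed to 718 to 764 in siMNX1 and 667 to 752 in siNT libraries, and ductal markers, 2 of 7 measured, to 1331 to 1432 in siMNX1 and 1138 to 1306 in siNT libraries. Stromal, endothelial and immune markers, 4 of 13 measured, summed to 5079 to 5686 in siMNX1 and 5798 to 6289 in siNT libraries. The part of these marker levels in the results for the processing genes was not tested.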

How the data were processed

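RNA was measured in 3 siMNX1 and 3 siNT libraries of EndoCBH1 cells, made from 5 ng of total RNA with ribosomal RNA depletion, per the labels' protocols, while the labels' molecule field names polyA RNA. The values are the authors' deposited signal, normalized counts that are never negative. The authors' tools, per the submitters' processing notes and without roles, include DESeq2 1.26.0, RSEM 1.3.1 and STAR 2.7.6a on GRCh38. Which annotation, filter and strand setting they used is not stated there. Of values under 10, 25.8% to 47.4% per library lay within 0.02 of a whole multiple of a step. The steps of best fit were 1.202, 1.015 and 0.9525 in siMNX1 replicates 1 to 3, and 1.093, 0.9365 and 0.847 in siNT replicates 1 to 3. The other low values were off that grid, so whole reads were not recovered and no count model was fitted. Read depth was not estimated from the steps. No exon shared by a processing gene and another GENCODE 29 gene was found.

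Values were analysed as log2(value + 1), on which fold changes of low genes are understated, with limma 3.58.1 (R 4.3.3), a variance trend, a minimum mean of 5 (which removed no gene) and Benjamini-Hochberg adjustment over 16792 genes. The procedure was tested on simulated data, where it recovered 70% of 1.5-fold, 56% of 2-fold, 98% of 4-fold and 98% of 8-fold changes. Each share rests on 50 genes of a single run, so the shares are coarse, and that at 2-fold was below that at 1.5-fold. The largest change of the 8 processing genes was 1.47-fold (PCSK2), and recovery of changes that small was not simulated. Of its calls 4.17% were false, and it made 1 call when no gene was changed. The simulated spread came from the fitted variance, so the variance trend itself was not tested. Symbols came from the file or, for 417 genes, from a gene table, and positions and exon lengths from GENCODE 29 on GRCh38. Python 3.11.15 was used for summaries. The members and lists were chosen with earlier results of these data known. Some genes of the lists are not reported here and were left out of the list counts and sums. Named genes were the 8 members, MNX1, PERCC1, SST, INS and SCG5, in each list up to 4 called genes or otherwise the 2 of highest mean normalized counts (not corrected for length), and the 3 genes of most similar pattern for each called member. Alternatives were pseudocounts of 0.5 and 5, no filter or a minimum mean of 50, other scalings (equal totals, or trimmed mean of M values factors), other variance models, a replicate block and left-out libraries.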

Additional observations from a re-analysis of the deposited data

How the results depend on the processing

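Of the 8 processing genes, 3 were higher under all other scalings, pseudocounts and filters tried, with the robust variance model and with the replicate block, and 0 were lower under any of the 17 alternatives. The count was 1 without a variance trend, 1 without the pair of libraries highest in mitochondrial share (siMNX1 replicate 3 and siNT replicate 2), and 1 to 3 with single libraries left out. Log2 fold changes stayed within 0.34 to 0.50 for PCSK1, 0.51 to 0.61 for PCSK2 and 0.26 to 0.34 for PCSK1N. Without a variance trend, PCSK1 (0.40, limma, adjusted p = 0.129) and PCSK1N (0.29, 0.138) were not called. With single libraries left out, PCSK1 ran from 0.34 to 0.48 and PCSK1N from 0.26 to 0.34. Without that pair, PCSK2 (0.53) and PCSK1N (0.29) were not called. Calls of ATP7A, CLCN5, CHGB, IGF2, IAPP and NOTCH3 ended without a variance trend and without that pair, and those of UCN3 and VGF without that pair. In these fits fewer samples were used or the variance was estimated otherwise, and no other cause was tested.

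Over all genes, 335 were higher and 223 lower, against 131 and 60 without a variance trend, 162 and 75 with the replicate block, 96 and 27 without that pair, and 133 to 257 and 65 to 179 with single libraries left out. Same-numbered libraries did not deviate together (r = -0.014, -0.009 and -0.038), so the numbers were not taken to pair samples. The block also ended the calls of CLCN5 and IGF2 and, among the genes of most similar pattern, of MAGEL2, MAPK10, RASAL2 and SYNRG.

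Signs near 0 turned with single libraries left out. The range was -0.04 to 0.06 for PAM, -0.09 to 0.09 for CPD, -0.01 to 0.06 for FURIN, -0.03 to 0.12 for QPCT, -0.37 to 0.35 for AEBP1 and -0.05 to 0.02 for the CPE/INS difference. PAM ran to -0.04 and -0.03 without siMNX1 replicate 1 and siNT replicate 3, CPD to -0.09 and -0.04 without siMNX1 replicate 2 and siNT replicate 1, FURIN to -0.01 without siMNX1 replicate 2, QPCT to -0.03 without siMNX1 replicate 1, and AEBP1 to 0.24 and 0.35 without siMNX1 replicate 1 and siNT replicate 3. The CPE/INS difference was 0.02, 0.02 and 0.0010 without siMNX1 replicate 2, siNT replicate 2 and siNT replicate 3. AEBP1, IAPP and NOTCH3 have no value at a minimum mean of 50. Read depth was not estimated, so counting error was not separated from the spread between libraries.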

Other observations

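Substrates of furin, the convertase gene whose groups overlapped, were listed separately. Of 24 measured out of 30, 1 was higher and 0 lower, with 6 higher and 3 lower at an unadjusted p under 0.05 (limma) and a median log2 fold change of 0.11. Over all genes 1.99% were called higher and 1.33% lower, and 9.81% and 8.56% at the unadjusted threshold. The called substrate was NOTCH3, a receptor that furin cuts on its way to the surface, with 72.1, 41.7 and 106 normalized counts in siMNX1 replicates 1 to 3, against 23.7, 21.5 and 28.0 in siNT replicates 1 to 3 (limma, log2 fold change 1.46, adjusted p = 0.0404). The NOTCH3 call held in 1 of 6 cases with single libraries left out, that of siMNX1 replicate 2 (limma, adjusted p from 0.0092 to 0.127). PLXNB2, which had the most normalized counts of these substrates and was named after its values were seen, had a log2 fold change of 0.03.

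Genes within 250 kb on either side of the processing genes were counted too, where 1.99% of all genes were called higher and 1.33% lower. For PCSK1, PCSK2 and CPE, limma called 0 of 1, 0 of 4 and 0 of 3 tested neighbours. For PCSK1N it called 1 of 17, WDR13, named after its values were seen, and the median log2 fold change of those neighbours was -0.03. For PAM and QPCT it called 0 of 3 and 0 of 7, and for CPD and FURIN 1 of 7 (SLC6A4) and 1 of 12 (SV2B), also named after their values were seen.

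The genes of most similar pattern were found by Pearson's r over the 6 libraries, where the difference between the groups is part of the pattern. For PCSK1 they were CFAP91 (r = 0.9967), CTBP2 (0.9935) and RASAL2 (0.9927), with log2 fold changes of 0.85, 0.21 and 0.43. For PCSK2 they were PAK5 (0.9961), TSPEAR-AS2 (0.9949) and MAPK10 (0.9940), with log2 fold changes of 0.10, 0.42 and 0.35. For PCSK1N they were SYNRG (0.9952), MAGEL2 (0.9944) and RIOK2 (0.9927), with log2 fold changes of 0.33, 0.31 and 0.19. Of these genes CTBP2, PAK5, TSPEAR-AS2 and RIOK2 were not called (limma, adjusted p = 0.142, 0.528, 0.115 and 0.213). With single libraries left out, the call held in 5 of 6 cases for CFAP91, 2 for MAGEL2, 1 each for RASAL2 and SYNRG and 0 for MAPK10. The MAPK10 call (adjusted p = 0.0489) also ended at equal totals (0.0525) and with the robust variance model (0.0502), all by limma. Out of 15154 named genes compared, 4, 7 and 6 reached an r of 0.99 or more with PCSK1, PCSK2 and PCSK1N in that order. The genes named were picked for the highest r over only 6 libraries, so their r is no evidence of shared regulation.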
